A study of Mus musculus with 4 samples.

Results

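Adrenergic receptors are the cell-surface receptors for noradrenaline and adrenaline, and dopamine beta-hydroxylase, encoded by Dbh, is the enzyme that makes noradrenaline from dopamine. The genes described here were 7 receptors (the α1 receptors Adra1a, Adra1b and Adra1d, the α2 receptors Adra2a, Adra2b and Adra2c, and the β1 receptor Adrb1) and Dbh. They were chosen by gene name in the authors' full sheet, which gave 8 of the 21265 genes with a single gene identifier, each with 1 probe set. Their signals were read on 4 Affymetrix arrays of hypothalamic RNA from male mice aged 12 weeks. The 2 ΔFosB arrays (titled DFosB A and B) came from mice of the genotype ENOI2DeltaFosB, and the 2 control arrays (Control A and B) from wild-type mice, all untreated. ΔFosB is a shortened splice form of FosB, a subunit of the AP-1 transcription factors, and Eno2 encodes neuron-specific enolase. The labels give neither the strain, nor the number of lines, nor whether each array stands for 1 animal or for pooled animals, so the p-values below reflect the spread between these samples alone, and that spread may be technical.

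Noradrenaline reaches the hypothalamus in the axons of brainstem neurons, whose cell bodies hold Dbh, the noradrenaline transporter Slc6a2 and the transcription factor Phox2a. Its receptors belong to the target cells, where α1 receptors couple to Gq proteins and phospholipase C, α2 receptors to inhibitory Gi and Go proteins, and β1 receptors to the stimulatory protein Gs and adenylyl cyclase. The α2 receptors Adra2a and Adra2c also act on noradrenaline terminals as brakes on release. In the hypothalamus noradrenaline takes part in feeding, stress hormone release and arousal.

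Since FosB proteins act through AP-1 sites, the promoter windows of these genes were searched for the letters TGANTCA (AP-1) and TGACGTCA (the cyclic AMP response element), which read the same on both strands (a window may hold both). RefSeq windows of the assembly GRCm38.p6, from 250 bases before to 50 bases after a gene's start, were matched for 6 of the 8 genes, 7 windows in all. Adra1a and Adra1d were not matched. A match was found in 1 window, the upstream start of Adra1b, where the AP-1 letters stand in capitals. Of all 32851 windows, 7.81% held the AP-1 letters and 1.79% the other letters. Both windows of Adra1b are shown because they differ in this match, and a match describes letters only. They lie on the minus strand, at chr11:43901188-43901487 and chr11:43836440-43836739.
Adra1b upstream start: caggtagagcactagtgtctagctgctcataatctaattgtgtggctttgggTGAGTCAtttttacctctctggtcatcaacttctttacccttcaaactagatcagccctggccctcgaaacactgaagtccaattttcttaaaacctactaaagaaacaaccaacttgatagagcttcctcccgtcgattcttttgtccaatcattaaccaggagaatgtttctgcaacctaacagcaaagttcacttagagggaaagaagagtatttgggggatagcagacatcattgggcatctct
Adra1b downstream start: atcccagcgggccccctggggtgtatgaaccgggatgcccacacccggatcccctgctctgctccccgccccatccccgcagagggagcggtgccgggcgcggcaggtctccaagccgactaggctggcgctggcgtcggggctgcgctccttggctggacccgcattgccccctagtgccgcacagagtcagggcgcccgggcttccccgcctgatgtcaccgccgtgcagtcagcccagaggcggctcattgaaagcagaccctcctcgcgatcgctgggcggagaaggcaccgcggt

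The arrays had similar totals, with summed signals of 68636594 to 68961786. Their median signals were 976 and 967 on ΔFosB arrays A and B, against 918 and 946 on control arrays A and B. Fosb, the gene of the transgene product, had signals of 1579 and 2189 on ΔFosB arrays, against 1377 and 1220 on control arrays (log2 fold change 0.52, SE 0.13, limma adjusted p = 0.0389, but 0.182 in the fit of all probe sets), and whether its probes read the transgene was not analysed here. Background was gauged from genes of the nose: over 1220 probe sets for olfactory or vomeronasal receptors, the 95th percentile of signal was 831, and signals up to it are called the receptor range. Genes were tested with limma's moderated test on log2 signals, ΔFosB minus control, after a filter that kept the upper 60% of mean signal (717 and above), and a call is a Benjamini-Hochberg adjusted p under 0.05 over the 14520 genes kept. Of these, 13.1% were called. Of the calls 47.2% were higher on ΔFosB arrays, or 23.6% after centring each array on its median. Of 14 marker genes of the hypothalamus, Agrp alone lay in the receptor range in both groups. That shows hypothalamic RNA on the arrays, not that it made up an equal share of each sample. Of the 14, 8 were called higher on ΔFosB arrays and 0 lower.

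In the ΔFosB hypothalamus 1 of the 8 genes was called, the α1A receptor gene Adra1a, which was 1.29-fold higher. The other receptors, with log2 fold changes between -0.27 and 0.23, did not pass, and Dbh lay in the receptor range on all arrays. Of the 7 genes past the signal filter, 1 rose and 0 fell, beside 6.18% of all genes called higher and 6.91% called lower in limma. At an unadjusted p under 0.05, 3 were higher and 1 was lower, beside 16.7% and 13.7% of all genes (30.5% in either direction). On 6 of the 8 probe sets both ΔFosB arrays were above both control arrays, beside 35.1% of all 35474 probe sets, and on 1, that of Adra1b, both were below (18.9% of all, and 54% either way). Among genes past the filter, 34.7% had both ΔFosB arrays above and 25.6% both below, 60.3% together. These counts use the deposited signals, whose medians were higher on ΔFosB arrays (976 and 967) than on control arrays (918 and 946). They can shift with that scaling and were not retaken after median centring. After it, 2 of the 7 genes had an unadjusted p under 0.05 in limma, beside 4480 of all 14520 genes. The median log2 fold change of the 7 genes was 0.10, against 0.02 over all genes tested.

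**Figure D1:**
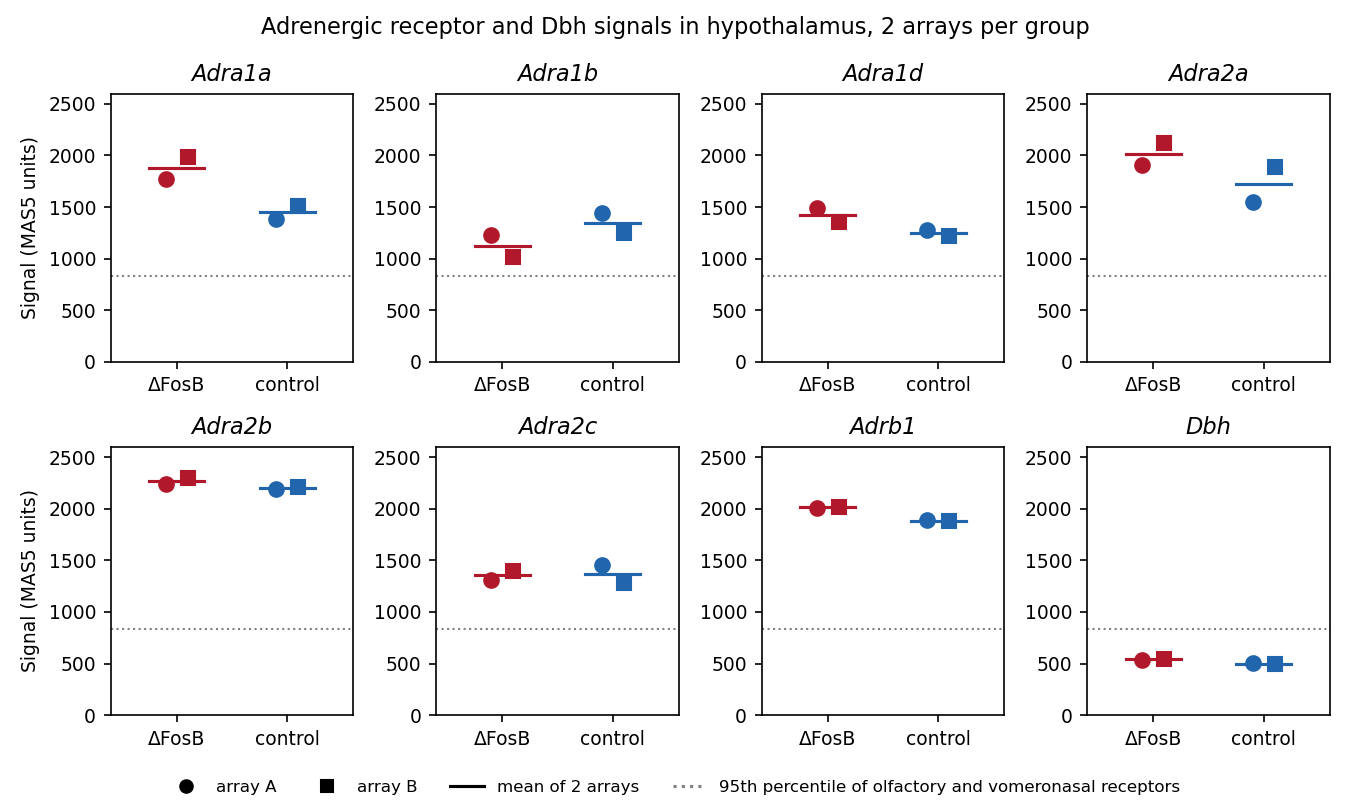
Signal of each gene (vertical axis, MAS5 units, from 0) on the 2 ΔFosB arrays (left, red) and the 2 control arrays (right, blue). Circles are arrays A, squares arrays B, bars the mean of 2 arrays, and the dotted line the upper end of the receptor range (831). Adra1a is higher and Adra1b lower on both ΔFosB arrays, and Dbh lies under the dotted line throughout.

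The α1 receptors excite their target cells. Adra1a (probe set 10416099) had signals of 1769 and 1981 on ΔFosB arrays A and B, against 1383 and 1513 on control arrays A and B. Both ΔFosB arrays lay above both control arrays, with a gap larger than the difference within either group. The means were 1875 ± 150 in ΔFosB and 1448 ± 91.7 in control (SD, n = 2 arrays each), a change of 0.37 on the log2 scale (SE 0.08, 95% interval 0.20 to 0.55, limma adjusted p = 0.0169). The call was lost on leaving out control replicate A (log2 fold change 0.31, adjusted p = 0.127) or ΔFosB replicate B (0.29, adjusted p = 0.0514), and when every probe set was tested without a filter (adjusted p = 0.115).

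Adra1b (probe set 10385353), the α1B receptor gene, had signals of 1233 and 1014 on ΔFosB arrays A and B, against 1444 and 1253 on control arrays A and B. It was the only one of the 8 genes with both ΔFosB arrays below both control arrays, yet ΔFosB A and control B were nearly equal. The log2 fold change was -0.27 (SE 0.10, 95% interval -0.50 to -0.03, limma adjusted p = 0.125), which is not a call. Array A was above array B in both groups, by 0.28 on the log2 scale in ΔFosB and 0.20 in control. It passed on leaving out ΔFosB replicate A (log2 fold change -0.41, adjusted p = 0.0154), whereas on leaving out ΔFosB replicate B the value was -0.13 (adjusted p = 0.443).

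Adra1d (probe set 10487886), the α1D receptor gene, had signals of 1494 and 1351 on ΔFosB arrays A and B, against 1277 and 1215 on control arrays A and B. The groups did not overlap, and the log2 fold change of 0.19 (SE 0.07, 95% interval 0.03 to 0.35) did not pass (limma adjusted p = 0.117). Leaving out ΔFosB A gave 0.12 (adjusted p = 0.389), and leaving out ΔFosB B gave 0.26 (0.0647).

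Ratios between the α1 genes were also taken. The log2 difference between Adra1a and Adra1b within an array, which does not depend on array scaling, was 0.52 and 0.97 on ΔFosB arrays A and B, against -0.06 and 0.27 on control arrays A and B. Both ΔFosB values lay above both control values, and the ratio of the genes was 1.56-fold higher on ΔFosB arrays. The ratio of Adra1b to Adra1d was lower on both ΔFosB arrays, by 0.46 on average (log2 difference -0.46), and that of Adra1a to Adra1d overlapped between the groups. With 2 arrays a group an exact two-sided permutation test cannot go below p = 0.333, which both separated ratios reached (0.80 after Benjamini-Hochberg adjustment over the 6 pairs compared among the α1 and among the α2 genes).

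**Figure D2:**
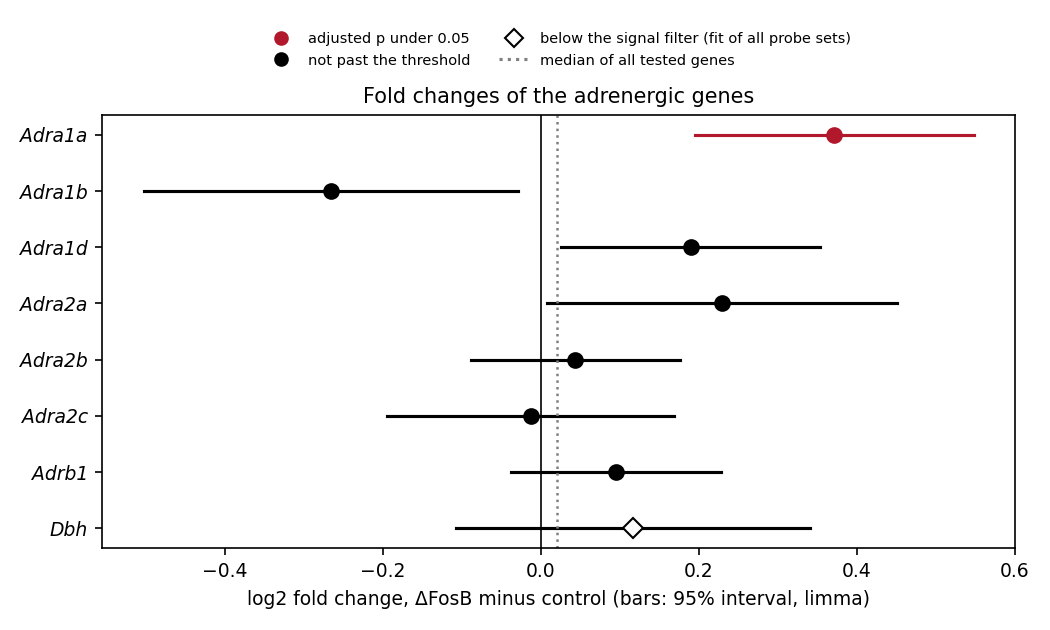
Log2 fold change of each gene, ΔFosB minus control (horizontal axis), with its 95% interval from limma (bars). The red point is the gene past an adjusted p of 0.05, Adra1a at 0.37. The open diamond, Dbh, is from the fit of all probe sets, and the dotted line is the median of all tested genes (0.02).

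The α2 receptors are inhibitory. Adra2a (probe set 10464030), the α2A receptor gene, had signals of 1904 and 2117 on ΔFosB arrays A and B, against 1552 and 1891 on control arrays A and B. ΔFosB A exceeded control B by only 0.01 on the log2 scale, so the groups barely separated, while the 2 control arrays differed by 0.29 on the log2 scale. Its log2 fold change was 0.23 (SE 0.10, 95% interval 0.01 to 0.45, limma adjusted p = 0.153). The value moved with each array left out: leaving out ΔFosB A gave 0.31 (adjusted p = 0.0837) and leaving out ΔFosB B 0.15 (0.397), while leaving out control A gave 0.09 (0.654) and leaving out control B 0.37 (0.048).

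Adra2b (probe set 10475800), the α2B receptor gene, was among the steadiest of the 8 between arrays. Its signals were 2240 and 2302 on ΔFosB arrays, against 2195 and 2210 on control arrays. The log2 fold change was 0.04 (SE 0.06, limma adjusted p = 0.646), and the 95% interval of the fold ran from 0.940 to 1.13. After centring each array on its median it was -0.02, so its direction depends on the scaling.

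Adra2c (probe set 10521383), the α2C receptor gene, had signals of 1306 and 1401 on ΔFosB arrays, against 1459 and 1277 on control arrays. It was the 1 gene of the 8 whose groups overlapped, both ΔFosB arrays falling between the 2 control arrays. The log2 fold change was -0.01 (SE 0.08, limma adjusted p = 0.929), with a 95% interval of the fold from 0.874 to 1.12. The sign turned with the array left out, from -0.11 to 0.08.

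Adrb1 (probe set 10464167), the β1 receptor gene, had signals of 2007 and 2020 on ΔFosB arrays, against 1888 and 1882 on control arrays. The replicates nearly coincided, and the groups did not overlap. The means were 2014 ± 9.11 in ΔFosB and 1885 ± 3.90 in control (SD, n = 2 arrays each), a change of 0.10 on the log2 scale (SE 0.06, limma adjusted p = 0.308). The 95% interval of the fold, 0.974 to 1.17, rests on limma's variance shared between genes and is wider than these 2 pairs of arrays alone would give. After centring each array on its median the log2 fold change of Adrb1 was 0.03 (limma adjusted p = 0.741), so its size depends on the scaling.

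**Figure D3:**
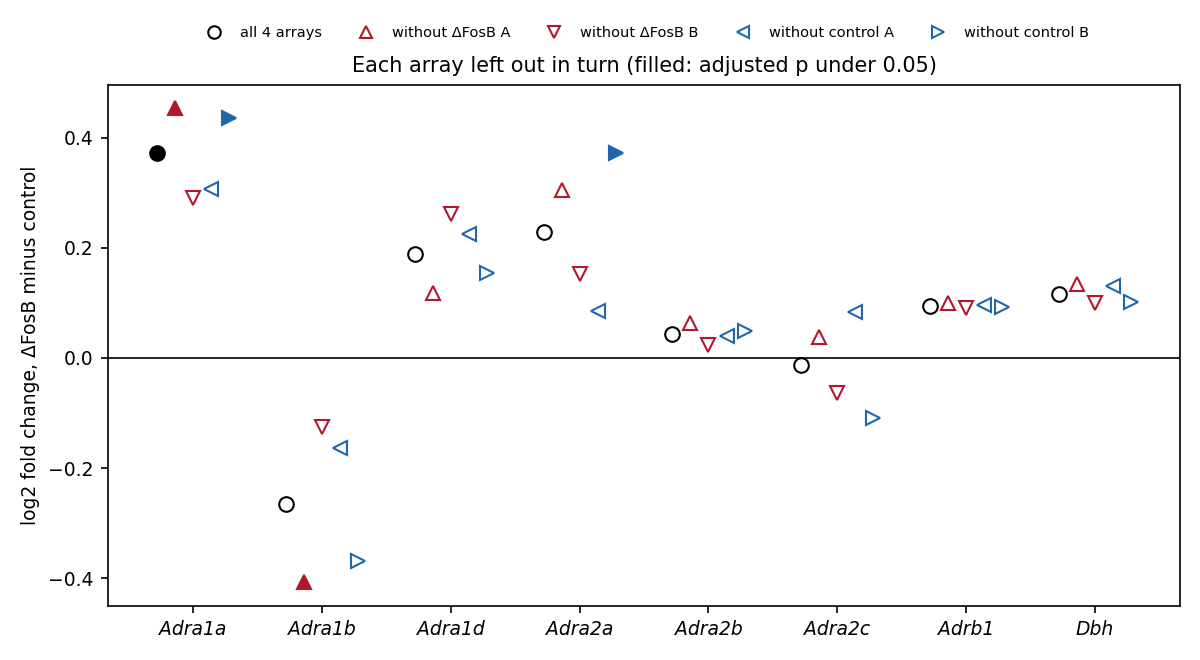
Log2 fold change of each gene, ΔFosB minus control (vertical axis), with all 4 arrays and with each array left out in turn (symbols), filled where the adjusted p was under 0.05. The points of Dbh are from the fits of all probe sets, those of the other genes from the fits of genes past the filter. Adra1a passed in 3 of these 5 fits, Adra1b without ΔFosB replicate A and Adra2a without control replicate B, and Adrb1 and Adra2b moved little.

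Dbh (probe set 10470412) had signals of 534 and 547 on ΔFosB arrays, against 503 and 493 on control arrays. All 4 values lay under 717, the signal at the filter, and under 831, the upper end of the receptor range, so no fold is given. In the fit of all 35474 probe sets the measured log2 difference was 0.12 (SE 0.09, limma adjusted p = 0.496). In that fit 0 of the 8 probe sets were called in limma, beside 1.43% of all (0.485% higher and 0.944% lower), and 2, both higher, had an unadjusted p under 0.05, beside 20% of all (11.5% higher and 8.51% lower). The unmoderated test called 0 of all 14520 genes past the filter (2690 at an unadjusted p under 0.05), so its 0 calls among the 7 adrenergic genes say nothing about them.

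Other markers of noradrenergic neurons were also dim. Slc6a2, the noradrenaline transporter gene, had 460 and 446 on ΔFosB arrays, against 384 and 458 on control arrays. Dbh, Slc6a2, Phox2a and Hand2 had both group means in the receptor range. Th and Slc18a2, which are on the same list and were above that range, also mark dopamine neurons.

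The genes around Dbh in the pathway were considered in lists of synthesis and vesicle loading, uptake and breakdown, and receptor coupling. Of the 12 genes of synthesis and vesicle loading, 8 passed the filter. Of these, 1 rose and 4 fell in limma, beside 6.18% and 6.91% of all genes. An unadjusted p under 0.05 was found for 5, beside 30.5% of all genes. Their median log2 fold change was -0.27, against 0.02 over all genes tested. Th, encoding tyrosine hydroxylase, the first enzyme of catecholamine synthesis, had signals of 2801 and 2961 on ΔFosB arrays, against 8714 and 6574 on control arrays (log2 fold change -1.39, SE 0.11, limma adjusted p = 0.000224). Ddc, the decarboxylase that makes dopamine, had 2541 and 2858 on ΔFosB arrays, against 5794 and 5068 on control arrays (-1.01, SE 0.08). Slc18a2, the vesicular monoamine transporter, had 1741 and 1788 on ΔFosB arrays, against 5696 and 4619 on control arrays (-1.54, SE 0.09). All 3 fell, with no overlap between the groups, beside 25.6% of genes past the filter with both ΔFosB arrays below both control arrays.

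Qdpr, which recycles the cofactor of tyrosine hydroxylase and was named after its values were seen, fell by 0.53 (SE 0.05). Pcbd1, another gene of that cofactor's recycling, rose by 0.23 (SE 0.05, limma adjusted p = 0.0197). That call was lost when control replicate A was left out (adjusted p = 0.0715), when control replicate B was (0.0822), when ΔFosB replicate A was (0.0735), and after median centring (0.0714). Spr, a cofactor synthesis gene, had a value of 0.07 on that scale, which is not a call (SE 0.07). Pnmt, which makes adrenaline, had 586 and 552 on ΔFosB arrays, against 531 and 549 on control arrays, within the receptor range. Of 10 marker genes of dopamine neurons, which include Th, Ddc and Slc18a2, 6 fell and 0 rose, beside 6.91% and 6.18% of all genes. Their summed signals were 17803 and 18373 on ΔFosB arrays, against 49112 and 41735 on control arrays. Among them Slc6a3, the dopamine transporter gene, had 717 and 770 on ΔFosB arrays, against 10241 and 7804 on control arrays. The part of those neurons in the falls of Th, Ddc and Slc18a2 was not tested. Fewer cells of a type, less RNA per cell and an unequal share of tissues between samples cannot be told apart in such bulk samples.

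Of 8 genes of uptake and breakdown, 7 passed the filter and 0 were called in limma, with 3 at an unadjusted p under 0.05 (beside 13.1% and 30.5% of all genes) and a median log2 fold change of -0.05. Maoa and Maob encode the monoamine oxidases that degrade noradrenaline. Maoa had signals of 2115 and 1872 on ΔFosB arrays, against 2360 and 2357 on control arrays, and Maob 3675 and 3163 on ΔFosB arrays, against 3932 and 4032 on control arrays. Neither pair of groups overlapped, and the log2 values of -0.25 (SE 0.07, limma adjusted p = 0.0556) for Maoa and -0.22 (SE 0.08, adjusted p = 0.0852) for Maob were no calls. Leaving out ΔFosB replicate A gave -0.33 for each, and leaving out ΔFosB replicate B gave -0.16 for Maoa and -0.12 for Maob. Both passed after median centring (limma adjusted p = 0.0265 for Maoa and 0.0383 for Maob), but not with quantile normalization (0.0785 and 0.138). At the other end, the low-affinity transporter genes Slc22a3 and Slc29a4 had values of 0.17 (SE 0.07) and 0.04 (SE 0.07), neither a call.

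Receptor coupling and desensitisation was represented by 37 genes, of which 36 passed the filter. In limma 1 rose and 1 fell, beside 6.18% and 6.91% of all genes. At an unadjusted p under 0.05 there were 15, beside 30.5% of all genes. The median log2 fold change of the list was 0.03, against 0.02 over all genes tested. The gene that rose was Adcy6, an adenylyl cyclase, by 0.27 (SE 0.07, limma adjusted p = 0.0437), and the gene that fell was Adcy1, another adenylyl cyclase, by 0.46 (SE 0.12, adjusted p = 0.0396). Both calls were lost on leaving out control replicate A (adjusted p = 0.173 for Adcy6 and 0.212 for Adcy1) or ΔFosB replicate B (0.169 and 0.0947), and that of Adcy6 also on leaving out control replicate B (0.136) and after median centring (0.107). Both were also lost with quantile normalization (0.0592 for Adcy6 and 0.0562 for Adcy1), without a filter (0.0573 and 0.0509) and in the unmoderated test, and that of Adcy1 with robust estimation (0.0893). Plcb4, a phospholipase C downstream of Gq, had -0.26 (SE 0.07, adjusted p = 0.05, just above the threshold), and Rgs2, which damps Gq signalling, had 0.25 (SE 0.07, adjusted p = 0.0547). Leaving out ΔFosB replicate A gave -0.36 for Plcb4 and 0.35 for Rgs2, and leaving out ΔFosB replicate B gave -0.15 and 0.15. Both passed with robust estimation (limma adjusted p = 0.0418 for Plcb4 and 0.0431 for Rgs2). After median centring Plcb4 passed (0.0272) and Rgs2 did not (0.138), and with quantile normalization neither passed (0.0737 and 0.05004). Over the 3 lists 2 genes rose and 5 fell, beside 6.18% and 6.91% of all genes, and after median centring 0 rose and 10 fell, beside 490 higher and 1584 lower calls over all 14520 genes.

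**Figure D4:**
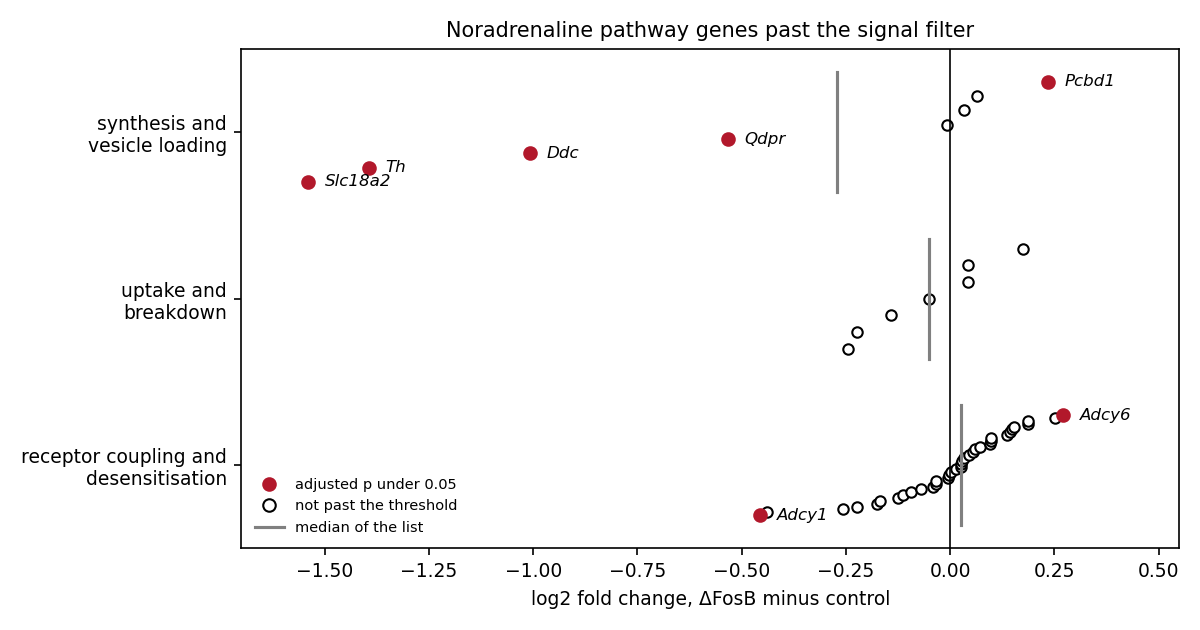
Log2 fold change, ΔFosB minus control (horizontal axis), of the genes past the signal filter in 3 lists of the noradrenaline pathway, each gene a point, with the list median as a grey line. Red points have an adjusted p under 0.05. Slc18a2, Th, Ddc and Qdpr stand to the left (-1.54 to -0.53), while the genes of receptor coupling lie between -0.46 (Adcy1) and 0.27 (Adcy6).

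The receptors were last set beside marker genes of neighbouring regions, a comparison chosen after the arrays' values were seen. Adra1b, a receptor gene strongly expressed in the thalamus, had log2 signals of 0.01 and -0.27 around its own mean on ΔFosB arrays A and B, against 0.24 and 0.03 on control arrays A and B. The median of the 10 thalamic markers, treated alike, was 0.06 and -0.37 on ΔFosB arrays A and B, against 0.28 and -0.00 on control arrays A and B. Both were highest on control A and lowest on ΔFosB B. In the thalamic median ΔFosB A lay above control B, so the groups overlapped, whereas for Adra1b it lay just below. Of the thalamic markers, 0 rose and 1 fell in limma (6 of 10 at an unadjusted p under 0.05). The shares of all genes were 6.18%, 6.91% and 30.5%. None of these markers lay in the receptor range in both groups. Their summed signals were 40941 and 31920 on ΔFosB arrays, against 48939 and 39744 on control arrays. Their part in the Adra1b difference was not tested.

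Adra1a had log2 signals of 0.10 and 0.27 around its mean on ΔFosB arrays A and B, against -0.25 and -0.12 on control arrays A and B. The median of the 14 hypothalamic markers was 0.27 and 0.30 on ΔFosB arrays A and B, against -0.43 and -0.17 on control arrays A and B. Both were lowest on control A and highest on ΔFosB B. Of these markers 8 rose and 0 fell, beside 6.18% and 6.91% of all genes. Their summed signals were 52397 and 54526 on ΔFosB arrays, against 20426 and 31435 on control arrays. Their part in the rise of Adra1a was not tested.

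**Figure D5:**
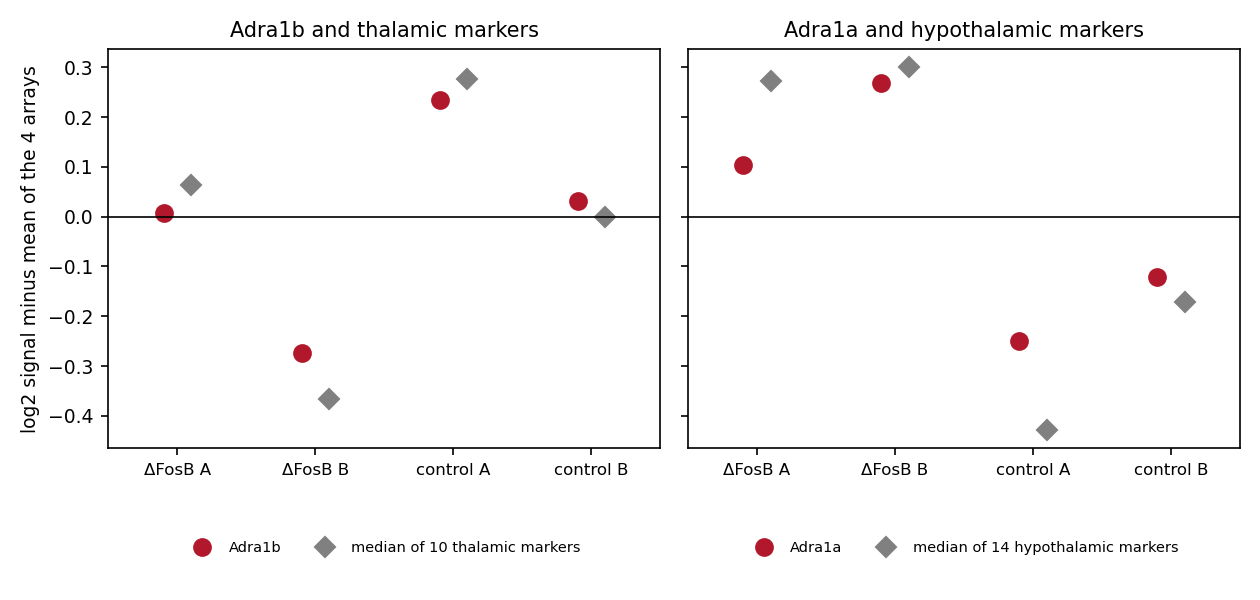
Log2 signal minus its mean over the 4 arrays (vertical axis) for Adra1b and the median of 10 thalamic markers (left panel) and for Adra1a and the median of 14 hypothalamic markers (right panel), on ΔFosB A, ΔFosB B, control A and control B. Adra1b and the thalamic median are both highest on control A and lowest on ΔFosB B. Adra1a and the hypothalamic median are both lowest on control A.

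Among the other markers, all 10 oligodendrocyte genes fell, with summed signals of 74971 and 81040 on ΔFosB arrays, against 107048 and 109885 on control arrays. Of 10 astrocyte genes tested 1 rose and 4 fell, of 8 vessel genes 0 rose and 3 fell, of 6 cortical and hippocampal genes 3 rose and 0 fell, and of 9 striatal genes 3 rose and 2 fell. In limma 0 of 5 microglial genes were called (0 at an unadjusted p under 0.05) and 0 of 2 pituitary genes (1 at an unadjusted p under 0.05). Over all genes, 6.18% rose, 6.91% fell and 30.5% had an unadjusted p under 0.05. Centred medians of other lists also separated the groups. For the oligodendrocyte genes they were -0.38 and -0.22 on ΔFosB arrays, against 0.25 and 0.34 on control arrays. For the cortical and hippocampal genes they were 0.16 and 0.12 on ΔFosB arrays, against -0.13 and -0.10 on control arrays. The part of these markers in the receptor values was not tested.

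Finally, the gene whose 4 log2 values, centred on their mean, lay nearest to those of each receptor was sought among the other 14519 genes, by Euclidean distance over the 4 arrays. For Adra1a it was S1pr3, a sphingosine phosphate receptor gene, at a distance of 0.028. For Adra1b it was 1110008P14Rik (0.042), for Adra1d Bricd5 (0.013), for Adra2b Ncaph2 (0.0035), for Adra2c Fam107a (0.0090) and for Adrb1 Pck2 (0.0039). With 4 arrays and this many genes a close match is a description of these arrays only.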

How the data were processed

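Per the labels' protocols, Trizol-extracted total RNA was turned into biotinylated cRNA and hybridised to Affymetrix arrays. The authors deposited 1 linear intensity per probe set and array. Per the submitters' processing notes these came from MAS5 (no version stated). The scaling target is not given in the sources used here, nor is a genome build. The 35474 probe sets of the authors' full sheet equalled the series' value table (largest difference 0). The 16 ratio columns of the authors' sheets were not used.

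From the deposited intensities log2 values were computed without a pseudocount. Symbols were updated through gene identifiers with a RefSeq table (GRCm38.p6), which held 21637 of 23015 probe sets with 1 identifier. A gene was represented by its brightest probe set. Groups were compared with limma 3.58.1 in R 4.3.3 (lmFit, eBayes with an intensity trend, no block) over 14520 genes, and over all 35474 probe sets without a filter. Limma intervals are 95% intervals. The procedure was tested on simulated data. Precision is limited by the number of arrays (over genes, standard errors had a median of 0.066 on the log2 scale). The members and the lists were chosen with earlier results of these data known. Genes named by rule were the members, Th, Ddc, Slc18a2, Slc6a2 and Pnmt, the 2 highest and 2 lowest statistics of each pathway list, and the nearest gene to each receptor. Qdpr, Fosb and the single markers were named outside it. The gene nearest to Adra2a and 1 marker are not reported here. Alternatives were other scalings, pseudocounts of 16 and 64, other filters, other variance estimates, averaging probe sets per gene, leaving out each array, and a replicate block. Tables were made with pandas 2.3.3 and numpy 2.4.6 under Python 3.11.15, figures with matplotlib 3.10.9.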

Additional observations from a re-analysis of the deposited data

How the results depend on the processing

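Of the 8 adrenergic genes 1 was called with all 4 arrays, and 0 to 2 when 1 array was left out: 0 on leaving out control A or ΔFosB B, and 2 on leaving out control B or ΔFosB A. The unmoderated test called 0. Called pathway genes, 7 with all arrays, numbered 4 to 11 with 1 array left out (4 without control replicate A, 11 without ΔFosB replicate A) and 0 in the unmoderated test. Over all genes, 1902 were called, against 702 without control replicate A, 1255 without control replicate B and 0 unmoderated (2690 at an unadjusted p under 0.05). Arrays of 1 letter share only that letter. With it as a replicate block, 4 adrenergic genes (Adra1a, Adra1d with adjusted p = 0.0438 and Adra2a with 0.0082 higher, Adra1b with 0.0059 lower), 1 adrenergic probe set, 20 pathway genes and 3824 genes in all were called, and deviations of the A arrays from their group means correlated with r = 0.24 across 14520 genes. Small values changed sign: Adra2b (-0.0167) and Slc29a4 (-0.0184) with median centring, Pnmt (-0.0120) with quantile normalization, Adra2c (-0.109 to 0.0830 with 1 array left out), Slc6a2 (-0.0154 to 0.238) and Slc29a4 (-0.0102 to 0.0947), both negative without control replicate A. Adra1a kept its direction in all 16 alternatives and passed in 13, with adjusted p from 5.3e-05 to 0.299. Th, Ddc, Slc18a2 and Qdpr each passed in 15 of 16, all but the unmoderated test. Adra1b and Slc22a3 had no value with only the upper 40% of signal kept.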
